A study of Mus musculus with 6 samples.

Results

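A set of 9 feedback regulators of NF-κB signalling and cytokine mRNA was followed in M2c macrophages with and without the soluble epoxide hydrolase (sEH, the product of Ephx2). They were Tnfaip3, Tnip1, Tnip3, Traf1, Birc3, Cyld, Irak3, Zc3h12a and Zfp36, taken by gene symbol from the count matrix, so that 9 of its 19309 genes were members. The data were bulk RNA-seq libraries, 3 from sEH-/- and 3 from wild-type mice, with 1 library per animal. The sEH-/- mice carried a constitutive deletion of Ephx2 made by crossing the Ephx2tm1.1Arte allele to a ROSA26 Cre line, a deletion not limited to macrophages; the wild-type animals were their littermates, and most experiments of the study used females. The methods gave an age of 8 to 10 weeks for marrow donors. In both genotypes bone marrow monocytes were first differentiated over 7 days, with M-CSF and with GM-CSF each at 15 ng/mL, were polarised to M1 with 10 ng/mL LPS plus 1 ng/mL IFN-γ, and were then repolarised to M2c with TGF-β1 (10 ng/mL). The M1 step lasted 24 h in the deposited series description and 12 h in the methods, and the TGF-β1 step 48 h in the former and 24 or 48 h in the latter. No untreated, M1 or M2a library was part of the comparison, so every value below was measured after the same LPS, IFN-γ and TGF-β1 exposure.

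Toll-like, interleukin-1 and tumour necrosis factor receptors activate NF-κB through ubiquitin chains assembled on adaptor proteins. NF-κB in turn induces genes whose products cut, edit or bind those chains, inhibit the receptor-proximal kinases, or destroy the cytokine transcripts, which closes a negative feedback loop. In macrophages this loop limits the response to LPS and takes part in endotoxin tolerance. The members fall into 4 roles. Tnfaip3 (A20, a ubiquitin-editing enzyme), Tnip1 (ABIN-1) and Tnip3 (ABIN-3) form the A20 group, and Cyld is a deubiquitinase that acts beside it. Traf1 and Birc3 (cIAP2, a ubiquitin ligase) belong to the TNF receptor complexes. Irak3 (IRAK-M) is an inhibitory member of the IL-1 receptor-associated kinase family. Zc3h12a (Regnase-1, an endoribonuclease) and Zfp36 (tristetraprolin, which binds AU-rich elements) act on mRNA.

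The start sites of the members are shown first, because NF-κB acts through κB motifs in DNA. RefSeq promoter windows of 300 bases (250 before and 50 after a start site; build GRCm38.p6) were found for all 9 members, in 11 windows, as Tnfaip3 and Irak3 each had a pair. Matches to the κB consensus lay in the windows of 4 members, against 4.5% of the 32851 windows of the table, with both strands searched in each. The windows of Tnip3, Tnfaip3 and Tnip1, the A20 group, are printed 5′ to 3′ with κB matches in capitals, next to that of Traf1, the member with the largest fold change.
Tnip3, chr6:65590148-65590447, plus strand: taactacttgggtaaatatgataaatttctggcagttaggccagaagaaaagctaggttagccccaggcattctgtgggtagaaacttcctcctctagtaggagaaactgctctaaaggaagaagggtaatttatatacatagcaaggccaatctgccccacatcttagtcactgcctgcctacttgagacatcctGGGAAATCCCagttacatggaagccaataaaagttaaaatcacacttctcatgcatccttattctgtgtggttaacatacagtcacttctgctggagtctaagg
Tnfaip3, chr10:19015361-19015660, minus strand: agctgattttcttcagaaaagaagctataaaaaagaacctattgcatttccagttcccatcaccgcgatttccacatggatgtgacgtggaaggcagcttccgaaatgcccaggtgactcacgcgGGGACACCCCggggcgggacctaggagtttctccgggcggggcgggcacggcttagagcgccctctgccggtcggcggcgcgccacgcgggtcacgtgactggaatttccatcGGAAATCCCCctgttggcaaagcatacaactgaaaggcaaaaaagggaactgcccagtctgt
Tnip1, chr11:54962891-54963190, minus strand: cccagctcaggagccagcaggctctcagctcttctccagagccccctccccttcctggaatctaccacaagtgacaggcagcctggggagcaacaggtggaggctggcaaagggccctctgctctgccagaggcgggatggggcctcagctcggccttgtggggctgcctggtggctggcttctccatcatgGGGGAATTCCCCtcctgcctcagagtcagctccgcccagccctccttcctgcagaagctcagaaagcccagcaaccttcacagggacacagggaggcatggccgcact
Traf1, chr2:34961723-34962022, minus strand: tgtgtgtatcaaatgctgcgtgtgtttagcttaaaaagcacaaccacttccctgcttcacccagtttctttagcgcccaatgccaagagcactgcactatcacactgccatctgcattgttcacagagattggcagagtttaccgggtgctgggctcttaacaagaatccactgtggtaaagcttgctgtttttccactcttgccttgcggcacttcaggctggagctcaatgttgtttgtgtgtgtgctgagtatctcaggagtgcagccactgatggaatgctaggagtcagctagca

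Positions are counted from the RefSeq start, with negative values before it. Tnip3 held 1 match, beginning at position -54. This start lies inside the span of the annotated gene, as do the starts of Tnfaip3, Birc3 and Zfp36 and 1 start of Irak3. Tnfaip3 held 2 matches, beginning at -125 and -12, the latter on the opposite strand, and its other window held none. Both of these matches also lie inside the annotated span of Tnfaip3. In Tnip1, 3 overlapping matches made up a single palindromic stretch that began at -58. Cyld held the match GGAAAGTCCC (read along the gene), beginning at -155, at chr8:88696873-88696882. No match was found in the windows of Traf1, Birc3, Irak3, Zc3h12a and Zfp36, which says only that these letters were absent there. The AP-1 motif TGACTCA was found in Tnfaip3 alone (5.2% of all windows), the palindromic GAS motif TTCNNNGAA in Tnip1 and Zfp36 (8.3%), and the core of the interferon-stimulated response element in no member (3.44%).

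The 3′ ends of the members were searched as well, since tristetraprolin binds AU-rich elements in mRNA, its own transcript included. The AU-rich nonamer TTATTTATT was searched in the 3′ untranslated region of 1 coding transcript per gene (GENCODE M21, GRCm38). It occurred in 3 of the 9 members, Birc3 and Zfp36 among them with 1 site each, against 7.09% of the 11698 tested genes with such a region. These sites of Birc3 and Zfp36 are printed with 10 bases on both sides and the nonamer in capitals.
Birc3, chr9:7848781-7848809, minus strand: gaaattcctgTTATTTATTggatgacatt
Zfp36, chr7:28376951-28376979, minus strand: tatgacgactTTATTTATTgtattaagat

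The shorter core TATTTAT was found in 4 members (27.2% of tested genes), among them Zfp36 with 3 sites, Cyld with 2 and Birc3 with 1. The 3′ regions of Traf1 (2123 bases), Irak3 (1067), Zc3h12a (856), Tnip1 (750) and Tnip3 (683) held neither form.

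The libraries held 4400197 to 6096440 counts. The deleted gene Ephx2 matched the labels, with 4, 2 and 1 counts in sEH-/- libraries 1 to 3 but 26, 49 and 57 counts in wild-type libraries 1 to 3. All 10 macrophage markers examined were detected, with a summed level of 2411 to 2966 CPM (counts scaled to the TMM-normalised library size) in sEH-/- and 2147 to 2684 in wild-type libraries. None was called, but duplicate removal (described with the levels per length) had brought Lyz2, Cd68 and Adgre1 to 0.881, 0.886 and 0.635 counts per exonic base, near the ceiling of 1, where little change can show. After a correction for this ceiling 1 of the 10, Cd14, was called higher. Of 8 neutrophil genes, 5 averaged under 1 CPM, among them S100a9, Cxcr2 and Elane, while S100a8 (26.9 against 18.5 CPM, adjusted p = 0.0570) and Csf3r (56.0 against 31.3 CPM, adjusted p = 0.0687) were higher in every sEH-/- library without being called. Most of the summed level of that list, 325 to 414 CPM in sEH-/- and 294 to 353 CPM in wild-type libraries, came from Mmp8. The part of these marker differences in the results that follow was not tested. Of 9 dendritic cell genes, Ccl22 was called higher, while their summed level overlapped between genotypes (48.2 to 83.0 against 55.4 to 75.3 CPM). Without being called, Fscn1 was higher (log2 fold change 1.03, edgeR adjusted p = 0.144) and Zbtb46 lower (-0.98, adjusted p = 0.115). Clec9a (-0.31), Ccr7 (-0.095) and Cacnb3 (0.039) were not called either, and 3 genes averaged under 1 CPM. A gene was called at an adjusted p below 0.05 (edgeR quasi-likelihood test, Benjamini-Hochberg over the 13785 genes with a mean above 5 counts) and a fold change above 1.5 in either direction. Each genotype rested on 3 libraries and the number of calls over all genes depended on which they were. Against 360 genes with all 6 libraries, leaving out sEH-/- library 1, 2 or 3 gave 518, 96 and 570, and leaving out wild-type library 1, 2 or 3 gave 625, 25 and 6.

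All 9 members passed the filter on low counts, and 1 of them, Traf1, was called. Over all tested genes 2.61% were called, and 1.51% were called higher in sEH-/- cells. Irak3 also had an adjusted p below 0.05 but a smaller fold change, so that 2 of 9 members were higher by adjusted p alone, against 2.39% of all genes. The level of 8 members lay above that of wild-type cells and that of Cyld below it, with a median log2 fold change of 0.14 where that of all tested genes was -0.00092. In 4 members (Traf1, Tnip3, Irak3 and Birc3) every sEH-/- library lay above every wild-type library, a pattern seen in 11.8% of genes, and in Cyld every sEH-/- library lay below, as in 14.5% of genes. In a bulk library more RNA per cell and more cells of an expressing type cannot be told apart.

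**Figure D1:**
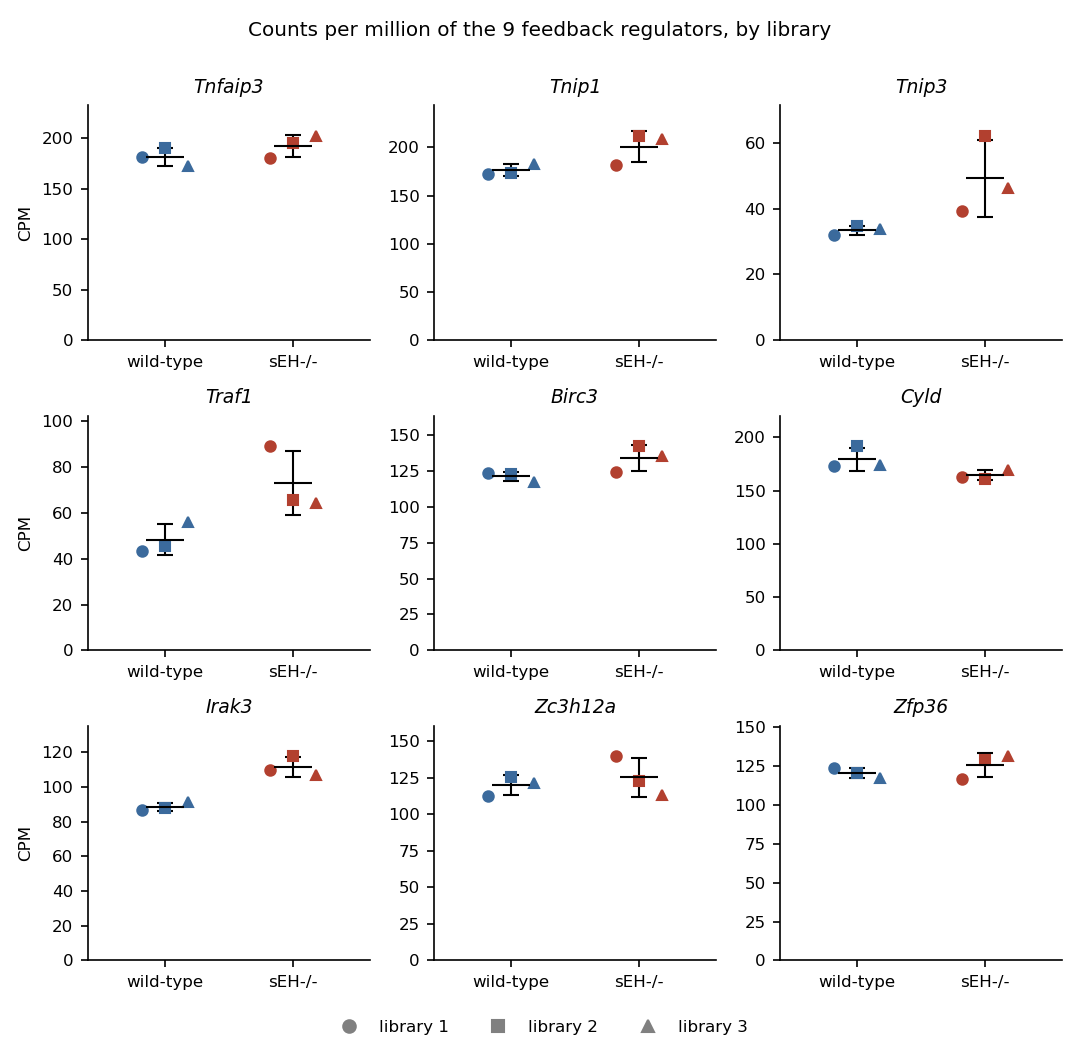
CPM of the 9 members (y axes, each starting at 0) in the 3 wild-type (blue) and 3 sEH-/- (red) libraries, with symbols for the library number and bars for mean and SD. The genotypes separate with narrow ranges in Irak3, sEH-/- library 1 is the highest of the 6 in Traf1, and sEH-/- library 2 is the highest in Tnip3.

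Traf1, an adaptor without a ubiquitin ligase domain of its own that binds TRAF2 and the cIAP proteins, was the only member called. It lies at chr2:34941750-34961772 (minus strand). Its level was 89.1, 65.8 and 64.5 CPM in sEH-/- libraries 1 to 3 and 43.5, 45.6 and 55.9 CPM in wild-type libraries 1 to 3. The groups did not overlap, but sEH-/- library 1 stood above its own group, and the gap between sEH-/- library 3 and wild-type library 3 was smaller than the range within either group. The means were 73.1 ± 13.9 and 48.4 ± 6.64 CPM (SD, n = 3 each), a log2 fold change of 0.60 ± 0.14 (SE; edgeR adjusted p = 0.0458). This call was close to the threshold. Without sEH-/- library 1 the log2 fold change was 0.43 and the adjusted p 0.0521; without sEH-/- library 2 the adjusted p was 0.0623, and without wild-type library 1, 2 or 3 it was 0.0717, 0.206 and 0.124. Over all 14 alternatives the adjusted p ran from 0.00568 (DESeq2) to 0.206 and was below 0.05 in 6, with the fold change above 0 in each.

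Birc3, the ubiquitin ligase cIAP2 (chr9:7848699-7873186, minus strand), had 124, 142 and 135 CPM in the sEH-/- and 123, 123 and 117 CPM in the wild-type libraries. The groups were less than 1 CPM apart, and sEH-/- library 1 was level with the wild type. The log2 fold change of 0.14 ± 0.072 did not pass the test (adjusted p = 0.274). Birc2, the neighbouring paralogue cIAP1, had 87.9, 83.3 and 81.6 CPM against 95.4, 106 and 100 CPM; the difference of -0.25 ± 0.073 on the log2 scale did not pass the test (adjusted p = 0.0725). Within a library, the log2 ratio of Birc3 over Birc2 was 0.49, 0.77 and 0.73 in sEH-/- libraries 1 to 3 but 0.37, 0.21 and 0.23 in wild-type libraries 1 to 3. The difference of 0.39 had a two-sided exact permutation p of 0.1, the smallest that 3 against 3 libraries can give. Every sEH-/- library was higher for Birc3 and lower for Birc2, so the ratio had to separate the genotypes. This p therefore adds nothing to those 2 patterns. The ratio was chosen after the values of both genes were seen, and other ratios were computed too. The same permutation test gave p = 0.2 for each of Traf1 over Tnfaip3, Irak3 over Tnfaip3 and Zfp36 over Zfp36l1. Traf2, the ubiquitin ligase adaptor of the same complex, had a log2 fold change of 0.15 (adjusted p = 0.296).

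Irak3 differed by genotype with little spread inside either group. IRAK-M holds back signalling from Toll-like and IL-1 receptors and is found mainly in monocytes and macrophages. The gene lies at chr10:120141648-120202130 (minus strand). Its level was 110, 118 and 107 CPM in the sEH-/- libraries and 86.6, 88.1 and 91.2 CPM in the wild-type libraries, without overlap and with a narrow range in both groups. The means were 111 ± 5.69 and 88.7 ± 2.36 CPM (SD, n = 3 each). The log2 fold change was 0.33 ± 0.070 (edgeR adjusted p = 0.0345), which stayed below the fold threshold, so Irak3 was not called. Its fold change ran from 0.31 to 0.37 over the alternatives and its adjusted p was below 0.05 in 9 of 14; without sEH-/- library 2 or wild-type library 1, 2 or 3 it was 0.106, 0.0552, 0.165 and 0.139. The exons of Irak3 share 192 bases with Tmbim4 and 28 with Gm47009, both on the opposite strand, and the counting was strand-aware.

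Of the other kinases of that family, Irak1, which carries the signal that IRAK-M restrains, had 169, 187 and 189 CPM against 185, 171 and 182 CPM. Irak2 had 248, 231 and 265 CPM against 273, 262 and 267 CPM. Both overlapped between genotypes, and their log2 fold changes were 0.020 (adjusted p = 0.900) and -0.11 (adjusted p = 0.424).

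No gene of the A20 group was called, and all 3 fold changes were above 0. Tnfaip3 itself (chr10:19000910-19015657, minus strand) had 180, 195 and 202 CPM in sEH-/- libraries 1 to 3 and 181, 190 and 172 CPM in wild-type libraries 1 to 3. The groups overlapped, since sEH-/- library 1 lay below 2 wild-type libraries. The log2 fold change of 0.085 ± 0.074 did not pass the test (adjusted p = 0.538) and ran from 0.049 to 0.13 over the alternatives.

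Tnip1, whose product binds A20 and ubiquitin chains, had 182, 211 and 208 CPM against 172, 174 and 183 CPM (chr11:54910785-54962917, minus strand). Only sEH-/- library 1 reached into the wild-type range. The log2 fold change was 0.18 ± 0.078, with an unadjusted p of 0.0375 and an adjusted p of 0.183.

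Tnip3 (chr6:65525313-65634040, plus strand) had 39.3, 61.9 and 46.1 CPM in the sEH-/- libraries and 31.9, 34.6 and 33.7 CPM in the wild-type libraries. The wild-type values were tight, the sEH-/- values were all higher and widely spread, and library 2 was the highest. The means were 49.1 ± 11.6 and 33.4 ± 1.37 CPM (SD, n = 3 each), and the log2 fold change of 0.55 ± 0.15 missed the threshold (adjusted p = 0.0668). Without sEH-/- library 1 it was 0.70 (adjusted p = 0.0239) and Tnip3 was called; without library 2 it was 0.37 (adjusted p = 0.190), in a range of 0.0239 to 0.222 over the alternatives. The log2 ratio of Tnip3 over Tnip1, also chosen after the values were seen, was -2.21, -1.77 and -2.17 in sEH-/- libraries 1 to 3 but -2.43, -2.33 and -2.44 in wild-type libraries 1 to 3 (difference 0.35, two-sided exact permutation p = 0.1, again the smallest possible). Tnip2, the remaining ABIN gene, had a log2 fold change of -0.047 (adjusted p = 0.761).

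Cyld was the member with a negative fold change. CYLD removes ubiquitin chains from the adaptors of the pathway. The gene (chr8:88697028-88751945, plus strand) had 162, 161 and 170 CPM in the sEH-/- libraries and 173, 192 and 174 CPM in the wild-type libraries. All sEH-/- libraries were lower, by a narrow margin between sEH-/- library 3 and wild-type library 1. The log2 fold change of -0.13 ± 0.070 did not pass the test (adjusted p = 0.306). Otulin, which cuts linear ubiquitin chains, had a log2 fold change of 0.18 (adjusted p = 0.280), and N4bp1, another inhibitor of NF-κB activation, of 0.22 (adjusted p = 0.147).

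The RNA-directed members showed the smallest differences. Zfp36 (chr7:28376784-28380253, minus strand) had 117, 129 and 131 CPM against 124, 121 and 117 CPM, overlapping values in which sEH-/- library 1 and wild-type library 3 were the lowest. Its log2 fold change was 0.058 ± 0.071 (adjusted p = 0.672). Its exons share 125 bases with the antisense gene Gm44710. Zc3h12a (chr4:125118423-125127840, minus strand) had 140, 123 and 113 CPM against 112, 126 and 122 CPM. The groups overlapped, with sEH-/- library 1 the highest, and the log2 fold change of 0.068 ± 0.087 (adjusted p = 0.694) became -0.020 without that library.

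Zfp36l1, a paralogue of tristetraprolin with the same target motif, had 67.2, 118 and 97.9 CPM in the sEH-/- libraries and 73.2, 59.4 and 57.5 CPM in the wild-type libraries. Library 1 of sEH-/- fell inside the wild-type range, and the other two lay above it. The log2 fold change of 0.57 ± 0.18 did not pass the test (adjusted p = 0.0870), but Zfp36l1 was called higher without sEH-/- library 1. Zfp36l2, the third paralogue, had a log2 fold change of 0.12 (adjusted p = 0.456), and Rc3h1, which encodes Roquin-1 and works beside Regnase-1, one of 0.039 (adjusted p = 0.859).

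**Figure D2:**
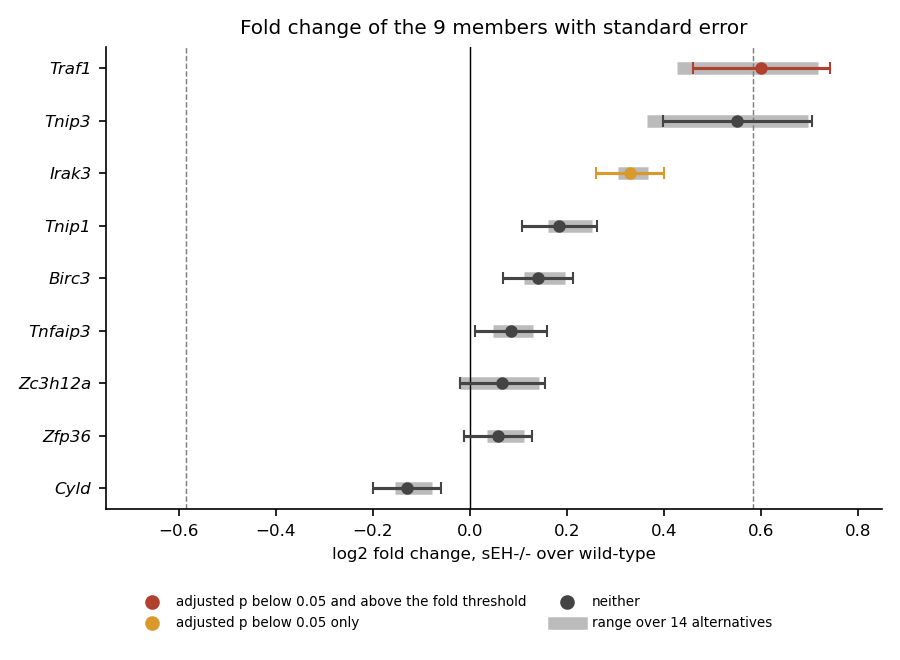
Log2 fold change (x axis, sEH-/- over wild-type) of each member as a point with its SE; grey bars are the range over 14 alternatives and dashed lines the fold threshold of 1.5 in either direction. Traf1 alone lies past the threshold with an adjusted p below 0.05, Irak3 passes the adjusted p only, and the bar of Zc3h12a crosses 0.

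Member by member, sEH-/- library 1 often took a different place from libraries 2 and 3. It was the highest of the 3 for Traf1 and Zc3h12a, and the lowest for Tnfaip3, Tnip1, Tnip3, Birc3 and Zfp36. The median deviation of the 9 members from the wild-type mean was 0.047, 0.23 and 0.16 (log2) in sEH-/- libraries 1 to 3, and -0.035, 0.020 and 0.014 in wild-type libraries 1 to 3. Over all tested genes these medians lay between -0.0092 and 0.0043.

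Per length, Tnip1 was the most abundant member in wild-type cells. On the scale of CPM per kb of all annotated exonic bases, the wild-type levels were 49.8 ± 1.68 for Tnip1, 41.6 ± 2.36 for Zc3h12a, 34.7 ± 0.970 for Zfp36, 25.0 ± 1.23 for Tnfaip3, 24.2 ± 0.642 for Birc3, 24.1 ± 0.642 for Irak3, 14.3 ± 0.848 for Cyld, 5.48 ± 0.753 for Traf1 and 3.06 ± 0.126 for Tnip3 (SD, n = 3). Tnfaip3, Birc3 and Irak3 did not differ beyond their spread. Tnip1 stood at the 94th percentile of 13778 genes, Traf1 at the 33.9th and Tnip3 at the 24.1st. The lower end of this order depended on the length used, because the annotated exons of Tnip3 cover 10916 bases and its coding transcript 1543. Per kb of 1 coding transcript, the wild-type level of Tnip3 (21.6 ± 0.888) was level with that of Cyld (22.4 ± 1.33) and above that of Traf1 (14.1 ± 1.93). On that scale Birc3 (45.4 ± 1.21), Zc3h12a (43.5 ± 2.46), Zfp36 (43.2 ± 1.21) and Tnfaip3 (40.9 ± 2.01) followed Tnip1, each overlapping with its neighbour.

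**Figure D3:**
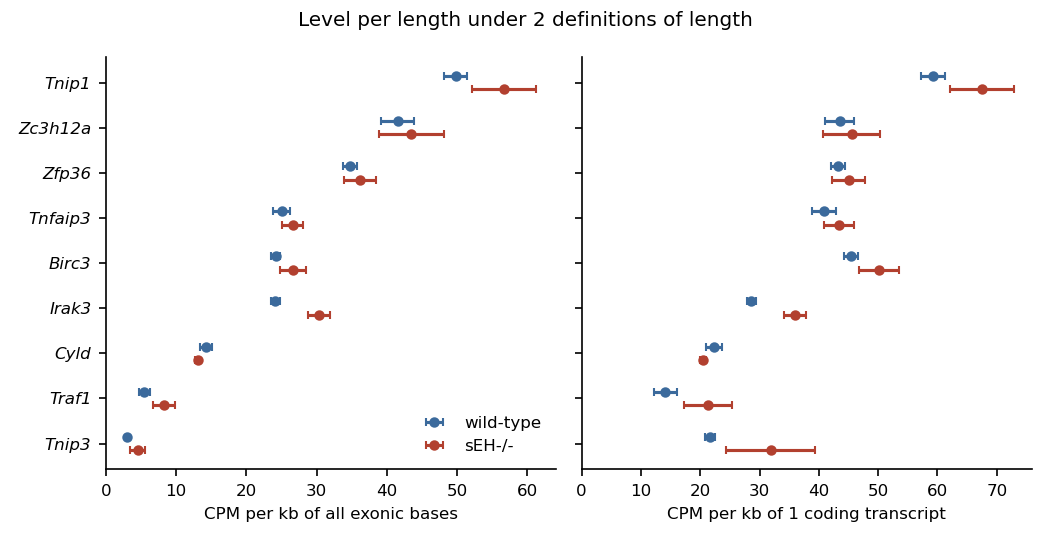
Mean level with SD (n = 3) of each member in wild-type (blue) and sEH-/- (red) cells, as CPM per kb of all exonic bases (left) or of 1 coding transcript (right). Tnip1 is highest and Irak3 separates by genotype on both scales, while Tnip3 moves up in the order on the right.

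Removal of duplicate reads before counting put a ceiling of about 1 count per exonic base on these data, as no gene exceeded 0.972 counts per base on average. The members lay well below it, from 0.0196 counts per base for Tnip3 to 0.277 for Tnip1. A correction for this ceiling, chosen after the data were seen, gave log2 fold changes of 0.62 for Traf1, 0.35 for Irak3 and 0.20 for Tnip1, and left Traf1 as the single call.

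Among 10276 genes averaging 50 or more counts, BC023105 (Pearson r = 0.973) and Kptn (0.971) were among the 3 whose log2 CPM followed Traf1 most closely over the 6 libraries. Those closest to Tnfaip3 were Zfp760 (0.971), Met (0.955) and D3Ertd751e (0.952). These values describe the 6 libraries, which share genotype and depth differences, and neither set included another member. They were picked as the highest of 10276 genes over only 6 libraries. Whether they exceed what such a choice gives among unrelated genes was not tested.

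The genes around the members were read from 5 lists. These were chosen with earlier results of these data known, so their counts of calls are no independent test against the shares of all genes. Over all tested genes 2.61% were called by edgeR, and 1.51% were called higher. In a list of 22 genes, 0 calls lies close to these shares. None of 22 other ubiquitin regulators of NF-κB was called by edgeR, DESeq2 or limma-voom (6 higher and 1 lower at an unadjusted edgeR p below 0.05, where 11.1% of all tested genes were higher and 12.2% lower), and their median log2 fold change was 0.024, with 13 above 0 and 9 below. None of 22 receptor-proximal genes was called by these tools either (3 higher and 2 lower at an unadjusted edgeR p below 0.05, to be read against the same shares; median 0.029). Of these Cd14, the LPS co-receptor, had an adjusted p below 0.05 at a log2 fold change of 0.50, and it was called after the ceiling correction.

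The NF-κB subunits, IκB proteins and IκB kinases held more calls than the ubiquitin lists. Of 17 genes, 4 were called higher and 0 lower, where 2.61% of all tested genes were called and 1.51% were called higher. Called or not, 13 fold changes lay above 0 and 4 below. The median was 0.29. Nfkbie (IκBε, a feedback inhibitor) had 96.5, 105 and 89.5 CPM against 67.1, 58.7 and 65.1 CPM, a log2 fold change of 0.61 (adjusted p = 0.0109). Nfkbiz (IκBζ, a nuclear cofactor needed for secondary response genes) rose by 1.28 (adjusted p = 0.0143). Nfkbid (IκBNS) rose by 0.67 (adjusted p = 0.0217) and Ikbke (IKKε) by 0.65 (adjusted p = 0.0297). In each of the 4 genes every sEH-/- library lay above every wild-type library. The 4 were picked by their calls, so this pattern is no separate support. The 11.8% of all tested genes with it is not a like comparison. Nfkbia, the classical feedback inhibitor IκBα, had 123, 130 and 128 CPM against 117, 90.1 and 108 CPM; its log2 fold change of 0.28 did not pass the test (adjusted p = 0.105). Without sEH-/- library 2 Nfkbiz alone was called in this list, and without wild-type library 2 or 3 the count was 0.

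Of 27 other genes of mRNA decay and stability, Dusp1 alone was called (median of the list 0.034). A single call in this list is close to the 2.61% of all tested genes that were called. DUSP1 is a phosphatase that shuts off p38 signalling and so affects tristetraprolin activity. It had 63.6, 82.3 and 46.8 CPM against 39.6, 36.3 and 36.0 CPM, a log2 fold change of 0.79 (adjusted p = 0.0351); the call was lost without sEH-/- library 2 and without wild-type library 2 or 3.

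Transcripts described as targets of tristetraprolin or Regnase-1 were the list with the largest median, 0.89 over 16 tested genes. Of these 7 were called higher and 0 lower, where 2.61% of all tested genes were called and 1.51% were called higher. The list was chosen with earlier results of these data known, so its count is no independent test against these shares. Called or not, 13 fold changes lay above 0 and 3 below. The 7 were Il1b, Cxcl1, Cxcl2, Cxcl3, Ccl3, Ccl4 and Nfkbiz, the last of which is also counted among the IκB proteins. Lif, a cytokine of the interleukin-6 family, lay in the other direction, with 16.3, 4.84 and 7.88 CPM against 16.5, 29.4 and 20.1 CPM. Its log2 fold change of -1.16 ± 0.36 did not pass the edgeR test (adjusted p = 0.0883), but Lif was called lower by DESeq2 (adjusted p = 0.0153) and without sEH-/- library 1 (0.0200), in a range of 0.0153 to 0.348 over the alternatives. Cxcl2, a neutrophil chemokine, had 40.9, 24.6 and 16.9 CPM against 6.60, 4.38 and 5.38 CPM (log2 fold change 2.36, adjusted p = 0.0107). Il1b had 54.6, 29.1 and 32.5 CPM against 11.2, 4.71 and 8.25 CPM (2.31, adjusted p = 0.0105), and Cxcl3 had a log2 fold change of 1.61 (adjusted p = 0.0107). Tnf, the first described target of tristetraprolin, had 73.1, 70.4 and 50.3 CPM against 41.1, 46.9 and 49.3 CPM, without overlap but by a margin of about 1 CPM, and its log2 fold change of 0.50 ± 0.14 did not pass the test (adjusted p = 0.0643). Il6 had 38, 6 and 4 counts in the sEH-/- libraries but 1, 4 and 1 counts in the wild type (adjusted p = 0.0770), most of them in sEH-/- library 1. Il6 was called higher by DESeq2, and both Tnf and Il6 were called higher without sEH-/- library 3. Il10 had 2, 1 and 0 counts in the sEH-/- and 0 in every wild-type library, too few to test. Without wild-type library 2 the list kept 1 call, Il1b, and without wild-type library 3 it kept 0.

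**Figure D4:**
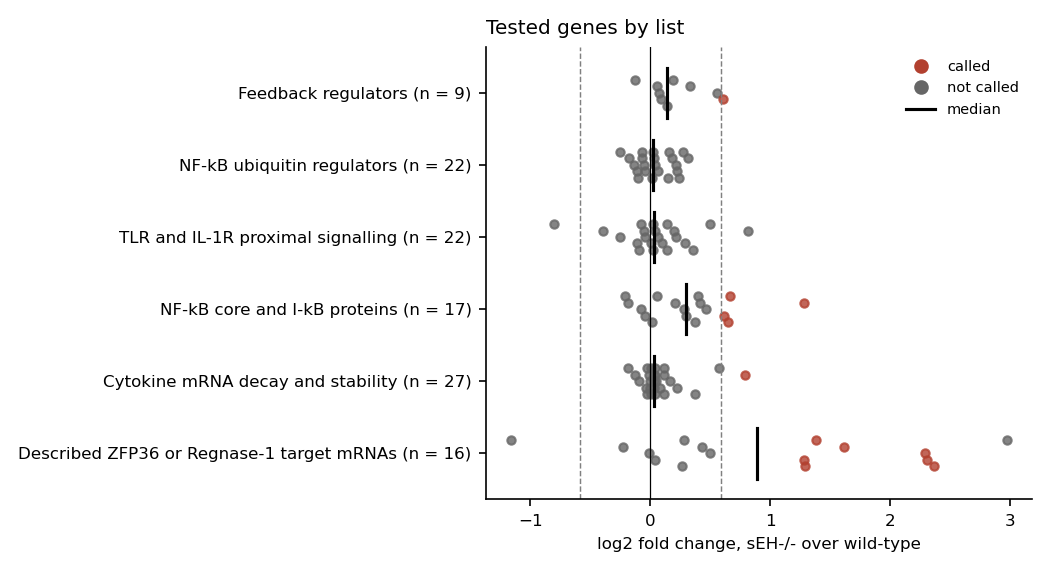
Log2 fold change (x axis, sEH-/- over wild-type) of every tested gene of the 9 members and of the 5 lists around them (y axis), with called genes in red, black bars for medians and dashed lines at the fold threshold of 1.5. The members and both upstream lists lie mostly between the dashed lines, and the called genes gather in the IκB list and in the described target mRNAs.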

How the data were processed

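The authors deposited raw counts for 19309 genes in 6 libraries. Per the labels, reads were trimmed with Trimmomatic 0.39, aligned with STAR 2.7.7a to mm10, deduplicated with Picard 2.21.7 and counted with featureCounts 1.6.5; the methods add that multi-mapping, ribosomal and mitochondrial reads were removed and that counting was strand-aware over exons. The library kit differed between labels (mRNA) and methods (total RNA). The test was edgeR's quasi-likelihood F test (version 4.0.16 under R 4.3.3, TMM factors, no covariates); genes with a mean above 5 counts were tested (13785). SE is the size of the log2 fold change over the square root of F. CPM used TMM-normalised library sizes. DESeq2 1.42.0 and limma 3.58.1 (voom) were alternatives. The code was tested on simulated data. No pair of libraries of a genotype agreed within sampling noise.

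Named genes were the 9 members, up to 4 called genes with the smallest p of each list, a fixed set of relatives (Tnip2, Otulin, Birc2, Traf2, N4bp1, Irak1, Irak2, Nfkbia, Nfkbie, Zfp36l1, Zfp36l2, Rc3h1, Tnf, Il6, Il10), Ephx2, and the 3 genes most like each of Traf1 and Tnfaip3 (1 of these genes and 1 sequence are not reported here); Cd14, Lif, marker genes and the other called target mRNAs were named after their values were seen. Members and lists were chosen with earlier results of these data known. Marker lists of erythroid, lymphocyte and stromal genes held 0 calls. Only 1 of 10 lymphocyte genes (Cd4) and 3 of 8 erythroid and megakaryocyte genes were in the count matrix, so the rest could not be called. Exonic lengths and 3′ regions came from GENCODE M21, promoters from RefSeq.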

Additional observations from a re-analysis of the deposited data

How the results depend on the processing

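Against 360 calls over all genes and 1 call among the members (Traf1), DESeq2, RLE factors, no filter, filterByExpr and the ceiling correction moved the count over all genes by less than 1.5 times and kept Traf1 as the one called member. Limma-voom and library sizes without TMM factors each left 0 members called (Traf1 adjusted p = 0.0515 and 0.0545). With no fold threshold 553 genes and 2 members (Traf1, Irak3) passed, with 1 receptor-proximal gene and 7 of the NF-κB core list. With the replicate block 234 genes and 0 members were called (edgeR, Traf1 adjusted p = 0.0618, Irak3 0.0828). The labels give both genotypes the same replicate numbers. Deviations of same-numbered libraries from their group means correlated at r = -0.217, -0.457 and -0.0629. With 3 libraries per group, these values cannot show whether same-numbered libraries shared a litter or a preparation. Leaving out 1 library gave 6 to 625 calls over all genes, 0 to 1 among the members, 0 to 1 receptor-proximal genes, 0 to 4 in the NF-κB core list, 0 to 2 in mRNA decay and 0 to 9 among described targets; without sEH-/- replicate 1 the called member was Tnip3. In these fits Zc3h12a ran from -0.020 to 0.14 and was the single member whose sign changed, and Traf1 ran from 0.43 to 0.72. The cause of these changes was not tested. Among described targets DESeq2 and the fit without sEH-/- replicate 1 each called 1 gene lower, Lif. DESeq2 also called Il6 higher, and the fit without sEH-/- replicate 3 called Tnf and Il6 higher. Among the genes of mRNA decay, the fit without sEH-/- replicate 1 called Zfp36l1 higher beside Dusp1. Low counts limit Il6 and leave Il10 and several marker genes untested; the members had at least 145 counts in every library.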
